A study of Rattus norvegicus with 12 samples.

Results

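Interferon-stimulated and antigen presentation genes were followed in WB311 and WB-F344 rat liver epithelial cells, with rapamycin or with vehicle. The list held 48 genes, of which 46 had at least 1 probe set annotated with that gene symbol alone, 64 probe sets in all, among 14217 genes with a probe set of their own on the array. Of the other members, Xaf1 and Ifi47 had no such probe set, and Ddx58 was matched by an older alias. The list was chosen by measured values of these same arrays, and which of them is not recorded. In an earlier reading Isg15, Ifi27l2b, Ifi27 and Casp4 were among the largest changes of WB311 cells with rapamycin. That response was taken here as the one that chose the list, and it is given as a description, without a test. The p-values of the other comparisons assume that those did not choose it, which is not known.

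RNA came from 3 plates each of WB311 cells with rapamycin, WB311 cells with vehicle, WB-F344 cells with rapamycin and WB-F344 cells with vehicle, hybridized to 12 Affymetrix Rat Genome 230 2.0 arrays. Rapamycin, an inhibitor of the kinase mTOR, was given at 50 nM for 24 hr, and the vehicle was DMSO. WB-F344 is a diploid, non-tumorigenic line from the liver of an adult male Fischer rat, labelled as sensitive to rapamycin, with a doubling time of 42 hr. WB311 is a tumorigenic line that arose spontaneously from WB-F344, labelled as resistant, with a doubling time of 15.5 hr. With 1 line of each kind, what follows from tumorigenicity, from resistance to rapamycin or from the particular line cannot be told apart. Nothing in the labels says whether the 3 plates of a group were grown independently, so p-values measure the spread between plates, which may be technical. The RNA is of whole cultures, in which fewer cells with a transcript and less of it per cell cannot be told apart.

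Interferons are secreted proteins by which cells warn each other of infection. Their receptors, on nearly all cells, activate Janus kinases and STAT proteins, and the complex of STAT proteins with Irf9 binds an interferon-stimulated response element (ISRE) in the promoters of its target genes, while STAT dimers bind a gamma-activated site (GAS). The induced proteins block steps of viral growth, sense foreign nucleic acid, and load peptides onto MHC class I molecules for display to T cells. Many cell lines keep a low level of these transcripts with no infection, and tumor cell lines are known to differ widely in this basal level.

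The promoters of the members, 250 bases before to 50 bases after the annotated start of the gene, were searched for both elements on both strands. Of the 48 members, 36 had a window in the RefSeq promoters of the GRCr8 assembly, and those of Isg15, Ifi27l2b, Casp4, Usp18, Mx2, Ifit1, Ifit2, Ddx58, Dhx58, Irf2, Jak1 and Nlrc5 were not used here. The letters GAAANNGAA, the inner part of the ISRE, stood in 25 of the 36 windows (69.4%) and in 9.71% of all 33469 windows of the same length. The letters TTCNNNGAA of the GAS stood in 12 of the 36 (33.3%) and in 8.87% of all windows. The list holds genes known as interferon targets, so these shares describe the list. A match shows only that the letters are present, and whether the site is bound was not measured. Shown here are the stretches of 8 members on which the later comparisons turn, on the strand of the gene and ending before its start, with the ISRE letters in capitals. In Tap1 and Gbp2 the capitals are the element as read on the other strand.
Ifi27: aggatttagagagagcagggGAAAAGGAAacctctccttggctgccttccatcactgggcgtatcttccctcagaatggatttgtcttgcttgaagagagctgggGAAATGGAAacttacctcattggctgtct
Ifitm3: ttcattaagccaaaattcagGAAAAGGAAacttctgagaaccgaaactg
Bst2: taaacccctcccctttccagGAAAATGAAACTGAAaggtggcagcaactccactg
Gbp2: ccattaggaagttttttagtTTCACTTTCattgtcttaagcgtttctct
Irgm: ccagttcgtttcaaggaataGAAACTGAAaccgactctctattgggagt
Tap1: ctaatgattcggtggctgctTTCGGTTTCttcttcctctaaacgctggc
Tapbp: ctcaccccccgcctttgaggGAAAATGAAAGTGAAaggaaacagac
B2m: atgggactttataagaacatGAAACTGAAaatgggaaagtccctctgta

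The stretches lie at chr6:128355123-128355256 on the plus strand for Ifi27, chr1:205541774-205541822 on the minus strand for Ifitm3, chr16:18255064-18255118 on the minus strand for Bst2 and chr2:234005677-234005725 on the plus strand for Gbp2. Those of Irgm (chr10:33742584-33742632), Tap1 (chr20:4668635-4668683) and Tapbp (chr20:4967878-4967923) are on the minus strand, and that of B2m (chr3:129549160-129549208) is on the plus strand. Ifi27 held 2 separate copies of the letters, beginning 169 and 84 bases before the start. In Bst2 and Tapbp 2 overlapping copies formed an unbroken run, and in Bst2 the run also overlapped the letters of the GAS. No ISRE letters stood in the windows of Mx1, Oasl, Trim25, Irf1, Irf3, Irf8, Irf9, Ifnar1, Ifngr1, Stat2 and Ifi47, of which Irf1, Irf8, Irf9 and Ifi47 held GAS letters.

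**Figure D1:**
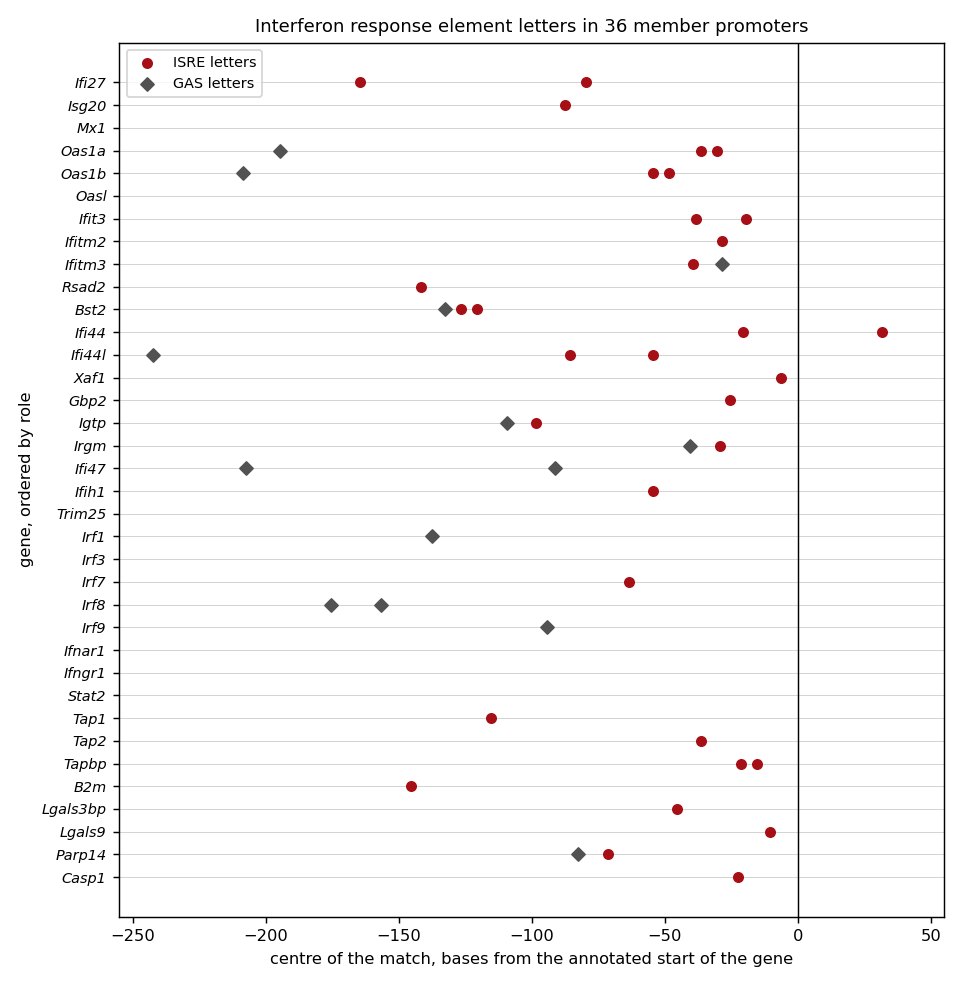
Position of the ISRE letters (red circles) and GAS letters (grey diamonds) in the 36 member promoters, as the centre of each match in bases from the annotated start of the gene, on the horizontal axis, with 1 gene per row by role. The letters of the ISRE stood in 25 windows and those of the GAS in 12.

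Levels are linear intensities, which the study's normalization by Robust Multiarray Average had put on a common scale. A probe set counts as measured in a comparison where its mean reached 100 in a group compared, the minimum in the study's methods. A gene is given by its brightest probe set, and differences are on the log2 scale. Of the 46 measured members, 26 reached 100 in at least 1 group and 20 did not. Those that did not were Mx1, Mx2, Oas1a, Oas1b, Oasl, Ifit1, Ifit2, Ifit3, Rsad2, Ifi44, Ifi44l, Usp18, Igtp, Ifih1, Dhx58, Irf2, Irf8, Tap2, Nlrc5 and Casp1. They include antiviral effectors often used as readouts of an interferon response. The dynamin-like GTPases Mx1 and Mx2, the oligoadenylate synthetases Oas1a and Oas1b, the RNA-binding Ifit1, Ifit2 and Ifit3 and the radical enzyme Rsad2 had group means of at most 36.6 in all 4 groups. Just outside the minimum was Irf2, at 99.5 in WB311 cells with vehicle, and just inside was Irf7, at 102 in WB-F344 cells with vehicle.

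**Figure D2:**
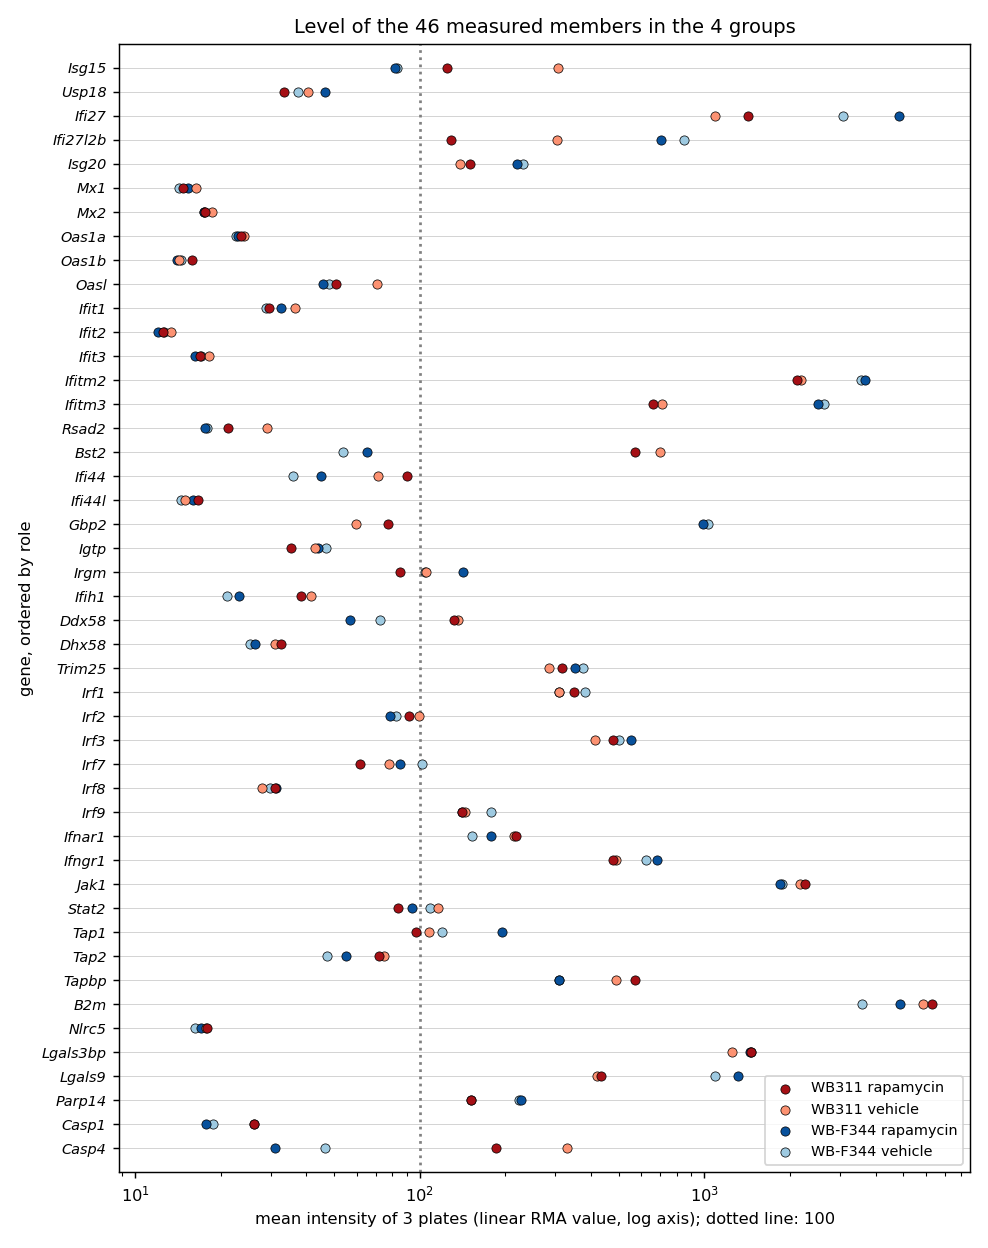
Mean intensity of 3 plates (log axis, linear normalized values) of each of the 46 measured members, in WB311 cells with rapamycin (dark red) and vehicle (light red) and in WB-F344 cells with rapamycin (dark blue) and vehicle (light blue). The dotted line marks 100, which 26 members reached in some group. Levels of different genes come from different probes and are not to be set against each other.

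The interferons themselves were not among the transcripts measured. Of 11 genes for interferons, 3 had a probe set, Ifnb1, Ifng and Ifnk, with group means between 12.5 and 18.1 in all 4 groups. The cultures also lacked most markers of other cells. Of 11 leukocyte markers on the array only Cd14 reached 100, and the general leukocyte marker Ptprc did not. Of 7 hepatocyte markers only Ttr did, with group means of 96.9 to 103, and Alb was at 31.9 to 33.5. Of 6 biliary and progenitor markers tested with vehicle, 4 were higher in WB311, Krt18 among them with a log2 difference of 3.44, and 2 were lower, Krt7 by 6.18 and Cd24 by 3.40. All 6 mesenchymal markers measured were lower in WB311 with vehicle, their sum over a plate being 13544 to 13865 in WB311 and 56736 to 66682 in WB-F344. The 1 endothelial marker measured, Tek, was higher in WB311 by 4.78 and was measured through WB311 alone. Of all genes 28.0% were higher and 28.8% lower in WB311 with vehicle. With rapamycin 2 of 5 biliary and progenitor markers tested were higher and 3 lower, against 34.1% and 27.0% of all genes. Genes of these 3 lists differed between the lines, and their part in the differences of the members was not tested.

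The basal level of the members, in vehicle-treated cells, differed between the lines in both directions. Bst2, Casp4, Isg15, Ddx58, B2m and Tapbp were higher in WB311. Gbp2, Ifitm3, Ifi27l2b, Ifi27, Lgals9, Isg20, Ifitm2, Parp14, Trim25, Irf7, Ifngr1, Irf1, Irf9 and Irf3 were lower. Of the 26 members tested, 6 (23.1%) were called higher, against 28.0% of all 8522 genes tested, and 14 (53.8%) were called lower, against 28.8% of all genes (limma, Benjamini-Hochberg adjusted p under 0.05 and a fold change of at least 1.2). The median log2 difference was -0.29 over the members tested and 0.0026 over all genes tested. These counts describe the measured members, since 6 of the 26 were measured through 1 line alone and all 6 of these were called. For Isg15, Ifi27l2b, Ifi27 and Casp4 the comparison uses the WB311 plates of that response, so no p is given for them.

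Bst2 encodes tetherin, which holds budding virus at the cell surface. With vehicle its intensity was 852, 605 and 640 on the 3 WB311 plates and 54.3, 50.3 and 57.4 on the 3 WB-F344 plates. With rapamycin it was 557, 581 and 581 in WB311 and 57.0, 72.8 and 65.9 in WB-F344. Every WB311 plate thus lay above every WB-F344 plate, with a log2 difference (WB311 minus WB-F344) of 3.68 with vehicle (standard error 0.12, adjusted p = 1e-10 from limma) and 3.14 with rapamycin (adjusted p = 3.77e-10). These are rough sizes, as is every difference of a gene that was under 100 in 1 of the groups. Such a gene, as Bst2, Gbp2, Ddx58 and Irf7 were with vehicle, was tested only through the line where it was high, so that its small p is no support of its own.

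Gbp2, a guanylate-binding GTPase, had the opposite pattern. Its intensity with vehicle was 70.5, 46.9 and 62.6 in WB311 and 1017, 988 and 1080 in WB-F344. With rapamycin it was 82.4, 75.5 and 75.1 in WB311 and 1006, 1008 and 944 in WB-F344. All 6 WB311 plates were under 100 and the 12 plates did not overlap between the lines. The log2 difference was -4.12 with vehicle (standard error 0.12, adjusted p = 2.76e-11 from limma) and -3.67 with rapamycin (adjusted p = 7.15e-11). The promoters of Bst2 and Gbp2, printed above, both hold the letters of the ISRE.

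The interferon-induced transmembrane proteins Ifitm2 and Ifitm3, which hinder fusion of viruses with cell membranes, were both lower in WB311. Ifitm3 had intensities of 708, 676 and 752 in WB311 with vehicle and 2569, 2396 and 2914 in WB-F344 with vehicle. With rapamycin these were 695, 602 and 685 in WB311 and 2495, 2516 and 2489 in WB-F344. The lines did not overlap, with log2 differences of -1.88 (vehicle) and -1.92 (rapamycin; standard error 0.09 each, adjusted p = 1.75e-09 and 1.17e-09 from limma). Ifitm2 was at 2113, 2176 and 2286 in WB311 with vehicle and at 3961, 2879 and 3807 in WB-F344 with vehicle. With rapamycin it was at 2079, 2120 and 2157 in WB311 and at 4041, 3159 and 3838 in WB-F344. Again the lines did not overlap, although WB-F344 plate 2 was the lowest of both groups, and the log2 differences were -0.68 and -0.79 (adjusted p = 0.000335 and 9.13e-05). The exonuclease gene Isg20, which degrades viral RNA, was at 136, 131 and 149 in WB311 with vehicle and at 240, 222 and 231 in WB-F344 with vehicle. Its log2 difference was -0.74 with vehicle and -0.56 with rapamycin (standard error 0.07 each, adjusted p = 1.38e-06 and 1.46e-05 from limma).

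Of the other members lower in WB311, Lgals9, a secreted galectin that regulates T cells, was at 409, 428 and 426 in WB311 with vehicle and at 1272, 749 and 1254 in WB-F344 with vehicle. With rapamycin it was at 431, 454 and 419 in WB311 and at 1473, 1082 and 1385 in WB-F344. The WB-F344 plates numbered 2 were the lowest of their groups but still above every WB311 plate. The log2 difference was -1.33 with vehicle and -1.58 with rapamycin (standard error 0.18 each, adjusted p = 3.1e-05 and 5.61e-06 from limma). Parp14, an ADP-ribosyltransferase, was at 152, 144 and 157 in WB311 with vehicle and at 211, 249 and 210 in WB-F344 with vehicle, a log2 difference of -0.56, and of -0.59 with rapamycin. Its plates did not overlap in either treatment (adjusted p = 0.000332 and 0.000202 from limma). Lgals3bp, a secreted galectin-binding glycoprotein, was not called in either comparison, with log2 differences of -0.22 and 0.02.

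Among sensors of foreign RNA, Ddx58, the cytosolic sensor of viral RNA ends also called RIG-I, was higher in WB311. Its intensity with vehicle was 141, 118 and 150 in WB311 and 65.1, 83.3 and 68.5 in WB-F344, and with rapamycin 152, 112 and 132 in WB311 and 53.1, 62.7 and 54.9 in WB-F344. No plate of WB-F344 reached the lowest of WB311, and the log2 difference was 0.92 with vehicle and 1.2 with rapamycin (standard error 0.13 each, adjusted p = 7.17e-05 and 5.57e-06 from limma). The related sensor Ifih1 was under 100 in all groups, at 36.4 to 44.5 on the 6 WB311 plates and 20.7 to 23.5 on the 6 WB-F344 plates. Those 2 ranges did not overlap either, at levels below the minimum. Trim25, a ubiquitin ligase that activates Ddx58, was lower in WB311 with vehicle by 0.39 on the log2 scale (adjusted p = 0.0224 from limma), a call that ended without WB-F344 vehicle plate 2 (adjusted p = 0.0866) and without WB311 vehicle plate 2 (0.0737) or plate 3 (0.0589).

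Of the genes of peptide loading, B2m and Tapbp were higher in WB311 with both treatments, while Tap1 was lower with rapamycin alone. B2m, the light chain of MHC class I molecules, had intensities with vehicle of 5681, 5949 and 5942 in WB311 and 3787, 3207 and 3750 in WB-F344. The log2 difference was 0.71 (standard error 0.07, adjusted p = 3.39e-06 from limma), and 0.38 for the second probe set of B2m (adjusted p = 0.0059). Tapbp, the chaperone tapasin that holds MHC class I molecules at the peptide transporter, was at 460, 488 and 518 in WB311 and at 342, 253 and 328 in WB-F344 with vehicle. Its log2 difference was 0.68 (standard error 0.11, adjusted p = 0.000163 from limma) and its plates did not overlap. Tap1, a subunit of that transporter, was at 105, 111 and 107 in WB311 and at 115, 136 and 109 in WB-F344 with vehicle, which overlap, with a log2 difference of -0.15 (adjusted p = 0.173). With rapamycin B2m was at 6179, 6343 and 6374 in WB311 and at 4963, 4893 and 4752 in WB-F344, Tapbp at 553, 576 and 578 in WB311 and at 318, 279 and 327 in WB-F344, and Tap1 at 98.1, 95.4 and 98.9 in WB311 and at 192, 211 and 181 in WB-F344. No plates overlapped between the lines there. The log2 differences with rapamycin were 0.37 for B2m, 0.89 for Tapbp and -0.99 for Tap1 (adjusted p = 0.000724, 1.43e-05 and 7.94e-07 from limma), and the second probe set of B2m gave 0.11, not called. Tap1 was under 100 in WB311 there and was tested through WB-F344 alone, so its small p is no support of its own. The other subunit, Tap2, and Nlrc5, a transcriptional activator of MHC class I genes, were under 100 in all groups.

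Among the members of signal transduction, the called differences were small. Some receptor and kinase genes outside the list, given further below, differed more. Ifngr1, the ligand-binding chain of the receptor for interferon gamma, was at 487, 488 and 497 in WB311 and at 695, 591 and 591 in WB-F344 with vehicle, a log2 difference of -0.35 (adjusted p = 0.00272 from limma), and of -0.52 with rapamycin (adjusted p = 0.000111). Jak1, a kinase shared by all interferon receptors, differed by 0.21 with vehicle, under the minimum fold change, and by 0.29 with rapamycin, where it was at 2277, 2244 and 2250 in WB311 and at 1873, 1878 and 1802 in WB-F344 (adjusted p = 0.00212). Its second probe set was called in both, at 0.39 and 0.50. Stat2, the STAT protein that joins Irf9, differed by 0.11 with vehicle, with overlapping plates. Ifnar1, a chain of the type I interferon receptor, was at 212, 205 and 226 in WB311 with vehicle, and at 205, 69.3 and 185 in WB-F344 with vehicle. The plates overlap and the difference of 0.63 had a standard error of 0.39 (adjusted p = 0.176), while another probe set of Ifnar1 gave 0.34 (adjusted p = 0.0392).

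Of the interferon regulatory factors, transcription factors of the interferon genes and their targets, the 4 that were tested were lower in WB311 with vehicle by small amounts. Irf2, just under the minimum, had a log2 difference of 0.32 and was not tested, nor was Irf8. The log2 difference was -0.38 for Irf7, -0.30 for Irf1, -0.30 for Irf9 and -0.27 for Irf3 (adjusted p = 0.0147, 0.0232, 0.00779 and 0.0295 from limma). Irf7 was at 71.4, 74.9 and 88.0 in WB311 and at 90.7, 97.2 and 119 in WB-F344, and Irf9 at 144, 137 and 152 in WB311 and at 172, 191 and 170 in WB-F344. Those plates did not overlap, but the values of Irf3 did. Each of the 4 calls ended when single plates were left out. The call of Irf1 ended without WB-F344 vehicle plate 2 or 3 or WB311 vehicle plate 2 (log2 -0.25, -0.29 and -0.26), and that of Irf3 without any of these or WB311 vehicle plate 1 (-0.22 to -0.26). The call of Irf7 ended without WB-F344 vehicle plate 3 (-0.27) or WB311 vehicle plate 1 (-0.32), and that of Irf9, by its fold change, without WB-F344 vehicle plate 2 (-0.24) or WB311 vehicle plate 2 (-0.26). Irf1, Irf3 and Irf9 were not called with rapamycin, where the log2 differences were 0.18, -0.21 and 0.01. Irf7 was under 100 in both lines with rapamycin and was not tested there, with a log2 difference of -0.47.

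With rapamycin in both lines, 7 of 24 members tested (29.2%) were higher in WB311, against 34.1% of 8557 genes, and 11 (45.8%) were lower, against 27.0% of genes. The median was -0.18 over the members tested and 0.06 over all genes tested. This comparison shares no array with the vehicle comparison. Called in both were 15 members, 75% of those called with vehicle and 83.3% of those called with rapamycin, and each had the same direction in both, 6 higher and 9 lower. Over all genes 4059 were called in both, 83.8% of those called with vehicle and 77.6% of those called with rapamycin, and 99.2% of these had the same direction, so nothing particular to the members is read from the overlap. Isg15, Bst2, Gbp2, Ddx58 and Casp4, among the 15, were measured through 1 line alone. The 5 called with vehicle alone were Trim25 and the 4 regulatory factors above, of which Irf7 was not tested with rapamycin. The 3 called with rapamycin alone were Jak1, Tap1 and Irgm. Irgm, an immunity-related GTPase that acts on membranes around intracellular pathogens, was at 91.1, 68.8 and 95.7 in WB311 with rapamycin and at 135, 144 and 147 in WB-F344 with rapamycin. The plates did not overlap, and its log2 difference was -0.75 with rapamycin (standard error 0.12, adjusted p = 0.000112 from limma) and 0.0054 with vehicle. Of the 24, 7 were measured through 1 line alone, Irgm and Tap1 among them, and all 7 were called.

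**Figure D3:**
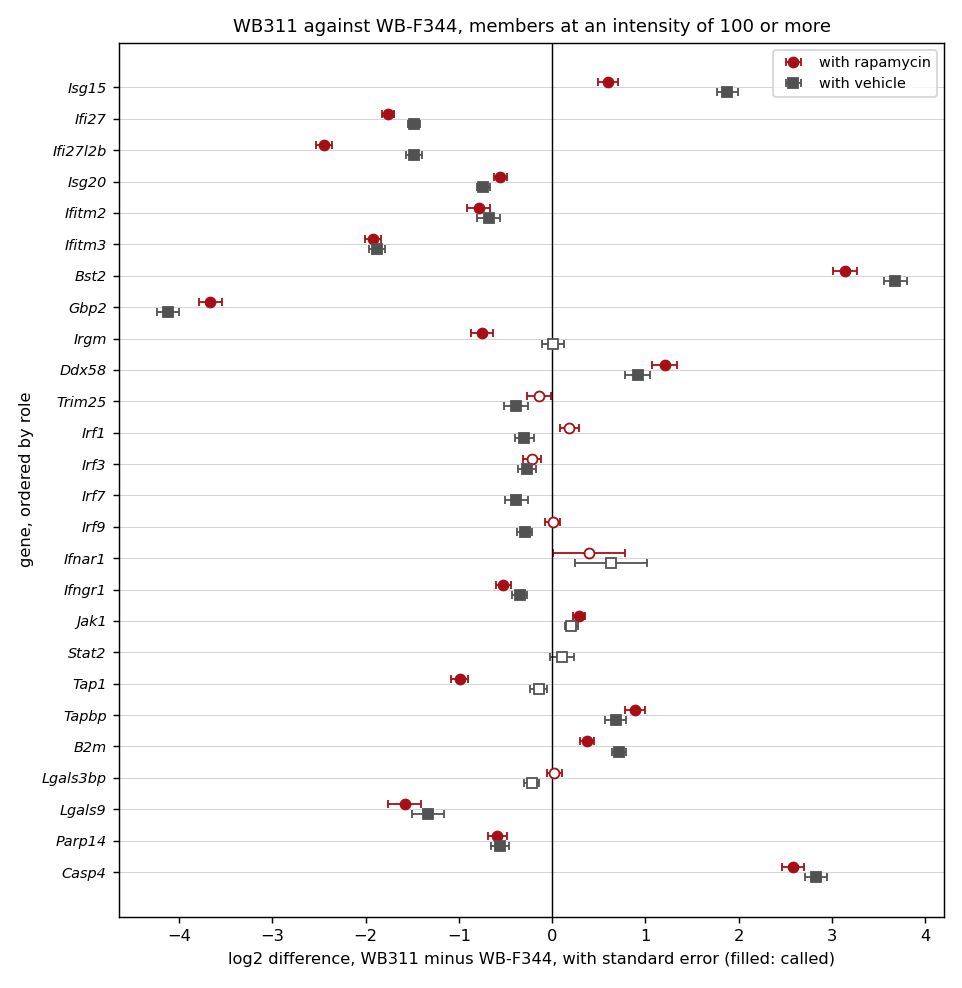
Log2 difference between the lines (WB311 minus WB-F344), with its standard error, of the members tested, with rapamycin (red circles) and with vehicle (grey squares). Filled symbols are called. Bst2 and Casp4 lay farthest to the right in both treatments and Gbp2 farthest to the left, and Tap1 and Irgm were called with rapamycin alone.

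In WB-F344 cells rapamycin raised Tap1, Ifi27, B2m and Irgm and lowered Irf9, Irf1 and Ifi27l2b. Of 22 members tested, 4 (18.2%) rose, against 7.81% of 8223 genes, and 3 (13.6%) fell, against 17.4% of genes. The median log2 change was -0.0016 over the members tested and -0.07 over all genes tested. With only the 2 groups compared 4 members were called, and 2, Ifi27 and Tap1, with the methods' t-test.

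Tap1 had intensities of 192, 211 and 181 in WB-F344 with rapamycin and 115, 136 and 109 with vehicle. All rapamycin plates lay above all vehicle plates, and the log2 change was 0.70 (SE 0.09, limma adjusted p = 0.000174). Ifi27, a small mitochondrial protein of the ISG12 family, was at 4880, 4742 and 4869 with rapamycin and at 3052, 2899 and 3242 with vehicle. It rose by 0.66 (standard error 0.06, adjusted p = 2.58e-05 from limma), also without overlap. The calls of both held without any 1 plate and under every other setting run.

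B2m was at 4963, 4893 and 4752 in WB-F344 with rapamycin and at 3787, 3207 and 3750 with vehicle, a rise of 0.45 (standard error 0.07, adjusted p = 0.000932 from limma). Its second probe set changed by 0.10 (adjusted p = 0.526), so the 2 probe sets disagree on this call. Irgm was at 135, 144 and 147 with rapamycin and at 107, 94.6 and 112 with vehicle. It rose by 0.44 (standard error 0.12, adjusted p = 0.0151 from limma), a call that ended without rapamycin plate 3 (adjusted p = 0.0523). The plates of B2m and Irgm did not overlap between treatments. With the 2 treatments paired by plate number within the line, as the plates of WB-F344 allow, Lgals9 was called as well, with a rise of 0.30 (adjusted p = 0.0198).

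The 3 falls in WB-F344 were small. Irf9 was at 137, 156 and 131 with rapamycin and at 172, 191 and 170 with vehicle, without overlap, for a log2 change of -0.33 (SE 0.08, limma adjusted p = 0.0108). Irf1 was at 295, 364 and 266 with rapamycin and at 355, 405 and 384 with vehicle, which overlap, a change of -0.32 (adjusted p = 0.0386). Its call ended in 9 of the 12 fits that left out 1 plate, with changes of -0.22 to -0.32 and adjusted p of up to 0.155. It held without WB-F344 vehicle plate 1, WB-F344 rapamycin plate 2 or WB311 vehicle plate 2. Ifi27l2b, the second ISG12 gene, was at 747, 700 and 666 with rapamycin and at 823, 879 and 843 with vehicle, a change of -0.27 (adjusted p = 0.0317) whose call ended without WB-F344 vehicle plate 2 or 3 or rapamycin plate 2 or 3 (adjusted p of up to 0.111). Its plates did not overlap. Ifi27 and Ifi27l2b, of one family, were thus called in opposite directions.

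Beside these changes, the leukocyte marker Cd14 rose in WB-F344 with rapamycin by 0.99. The sum of the 11 leukocyte markers over a plate was 1328 to 1604 with rapamycin and 807 to 950 with vehicle, and without Cd14 it was 338 to 396 and 306 to 349. None of the other 10 markers reached 100, and their part in the changes of Tap1 and B2m was not tested. RNA quality set WB-F344 plate 2 apart with either treatment. Its 3′ probes of Gapdh exceeded the 5′ probes by 0.17 with rapamycin and by 0.34 with vehicle on the log2 scale, against -0.12 to -0.04 on the other 4 plates of the line. Of the 26 measured members, 10 were highest and 6 lowest on plate 2 in both treatments, Stat2, Irf1 and Trim25 among the highest and Ifnar1, Lgals9 and Tapbp among the lowest. Without both of these plates, 5 members were called in this comparison, and the calls of Tap1, Ifi27 and B2m remained.

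In WB311 cells the changes taken to have chosen the list were falls of Isg15, Ifi27l2b and Casp4 and a rise of Ifi27. Isg15, a ubiquitin-like protein that interferon induces and that is joined to other proteins, had intensities of 115, 141 and 118 with rapamycin and 335, 259 and 326 with vehicle in WB311. In WB-F344 it was at 82.5, 83.5 and 79.3 with rapamycin and at 86.0, 87.2 and 75.8 with vehicle, under 100 on all 6 plates. The WB311 plates with rapamycin thus lay between the WB311 plates with vehicle and all WB-F344 plates. The log2 change in WB311 was -1.30 (standard error 0.11). The difference between the lines was 1.88 with vehicle and 0.60 with rapamycin. Usp18, the protease that removes Isg15 from proteins, was under 100 in all groups, at 33.3 with rapamycin and 40.7 with vehicle in WB311 and at 46.5 with rapamycin and 37.3 with vehicle in WB-F344.

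Ifi27l2b was at 134, 135 and 118 in WB311 with rapamycin and at 301, 281 and 329 in WB311 with vehicle, a log2 change of -1.23 (standard error 0.08). Both WB311 groups lay under every WB-F344 plate, the lowest of which was at 666. The difference between the lines was -1.48 with vehicle and -2.45 with rapamycin. Ifi27 was at 1398, 1448 and 1429 in WB311 with rapamycin and at 1071, 1099 and 1114 with vehicle, a change of 0.38 (standard error 0.06). The 2 ISG12 genes thus moved in opposite directions in WB311 too, and both were lower there than in WB-F344, Ifi27 by 1.48 with vehicle and 1.76 with rapamycin on the log2 scale.

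Casp4, an inflammatory caspase that responds to bacterial lipopolysaccharide, was at 179, 190 and 186 in WB311 with rapamycin and at 328, 332 and 331 in WB311 with vehicle. It was at 32.0, 36.3 and 25.2 in WB-F344 with rapamycin and at 50.0, 40.8 and 48.8 in WB-F344 with vehicle. The 4 groups did not overlap, and the rapamycin plates were the lower ones in both lines, in WB-F344 at levels under the minimum of 100. The log2 change in WB311 was -0.84 (standard error 0.12), and the difference between the lines was 2.83 with vehicle and 2.59 with rapamycin. The related caspase gene Casp1 was under 100 in all groups, at 26.2 with rapamycin and 26.1 with vehicle in WB311.

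**Figure D4:**
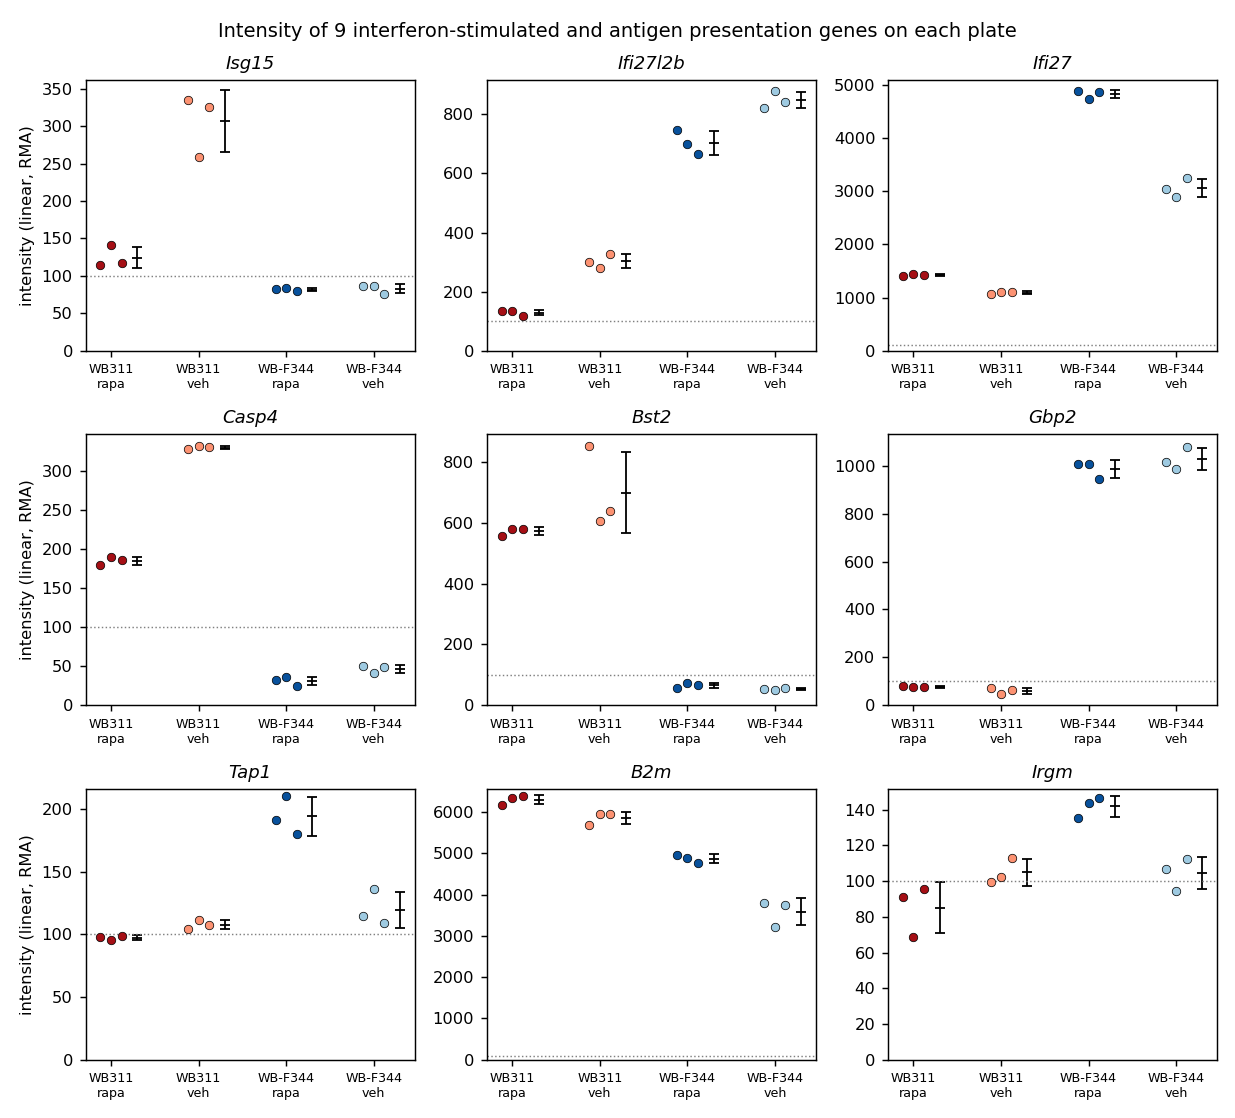
Linear intensity on each plate (points), with the mean and SD of 3 plates beside them, of 9 members in WB311 cells with rapamycin and vehicle and in WB-F344 cells with rapamycin and vehicle, with axes from 0 and a dotted line at 100. Isg15, Ifi27l2b and Casp4 were lower with rapamycin on all 3 WB311 plates, and Tap1, B2m and Irgm were higher with rapamycin on all 3 WB-F344 plates.

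No other member was called in WB311 by the fit of all 12 arrays. The plates of 14 of the 24 members tested, the genes above included, did not overlap between treatments. The share of all genes without overlap was not counted, so nothing is read from this number. Of 24 members tested, 1 rose (4.17%), against 1.70% of 8156 genes, and 3 fell (12.5%), against 2.05% of genes. The 4 are the genes above, whose changes were taken to have chosen the list, so nothing is read from the counts. The median log2 change was -0.02 over the members tested and 0.0032 over all genes. Stat2 was at 84.6, 82.3 and 84.0 in WB311 with rapamycin and at 113, 115 and 118 with vehicle, without overlap, a log2 change of -0.47 (standard error 0.13). Stat2 did not pass the thresholds in the fit of all 12 arrays. It did with only the 2 groups compared, with the methods' t-test, with the fold change filter first and with the replicate block within lines. Since this response was taken to have chosen the list, those calls are a description and no support for a change of Stat2. Its second probe set changed by -0.21. Bst2 changed by -0.27 and Irgm by -0.31, each without overlap of plates and without a call. Tap1 was at 98.1, 95.4 and 98.9 with rapamycin and at 105, 111 and 107 with vehicle, a change of -0.15, and B2m at 6179, 6343 and 6374 with rapamycin and at 5681, 5949 and 5942 with vehicle, a change of 0.11. Neither was called. The log2 changes of Parp14, Ifnar1, Irf9, Ifngr1, Lgals9 and Ifitm2 were between -0.05 and 0.05.

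**Figure D5:**
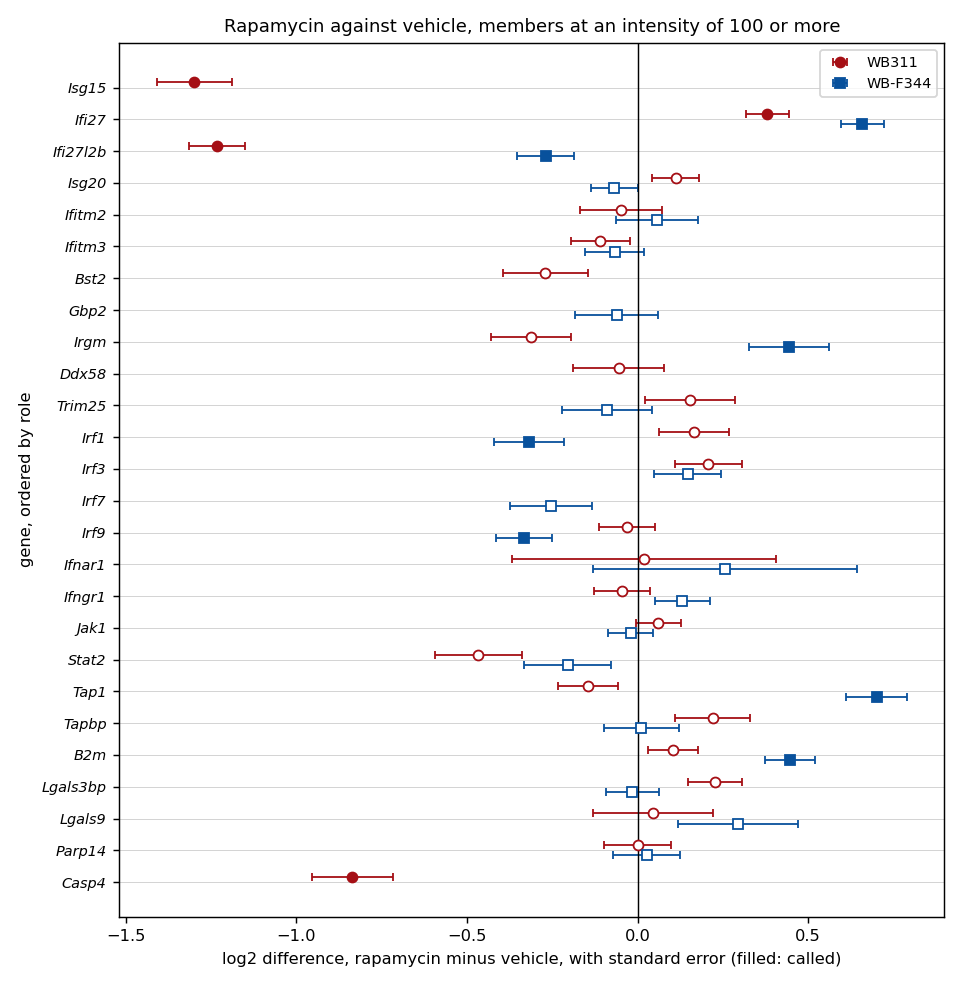
Log2 change with rapamycin (rapamycin minus vehicle), with its standard error, of the members tested, in WB311 (red circles) and WB-F344 (blue squares). Filled symbols are called. In WB311 these are Isg15, Ifi27l2b, Casp4 and Ifi27, whose changes were taken to have chosen the list, and in WB-F344 Tap1, Ifi27, B2m, Irgm, Irf9, Irf1 and Ifi27l2b.

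The difference of the changes between the lines (WB311 minus WB-F344) contains the WB311 response and is given as a description too. It was -1.28 for Isg15 (standard error 0.16), -0.96 for Ifi27l2b (standard error 0.12), -0.85 for Tap1 (standard error 0.13) and -0.76 for Irgm (standard error 0.17). Isg15 was under 100 in WB-F344, where its change of -0.02 is not a measured response. Tap1 and Irgm rose in WB-F344 and had negative values in WB311, where with rapamycin both were under 100. Of 26 members tested, 0 were called with a higher change in WB311, against 7.98% of 8660 genes, and 4 (15.4%) with a lower one, against 3.60% of genes. Nothing is read from these counts either, since the difference includes the WB311 response. For Ifi27 and Casp4 it was -0.28 and -0.25, not called. The number of members past the thresholds was 8 with the treatments paired by plate number within lines, through Irf1 (0.48), Gbp2 (0.45), Irf9 (0.30) and B2m (-0.34), which without the pairing were not called.

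Genes of the same pathway outside the list, chosen with earlier results of these arrays known, gave the levels of receptors and of other targets. Of 9 genes for receptors, kinases, STATs and their inhibitors tested with vehicle, 7 were higher in WB311 and 1 was lower, against 28.0% and 28.8% of all genes. Only 7 genes of this list were tested within WB-F344, so some of the 9 were measured through WB311 alone. The counts thus describe the measured genes. Jak2, a kinase of the interferon gamma receptor, had a log2 difference of 1.83 (rough size), Ifngr2, the second chain of that receptor, 1.48 and Ifnar2, the second chain of the type I receptor, 1.26 (adjusted p = 3.94e-09, 3.14e-09 and 5.69e-07 from limma). Jak2 was tested through WB311 alone, so its small p is no support of its own. Stat3, which interleukins also use, was lower by 0.86 (adjusted p = 2.33e-06). With rapamycin 5 of 8 were higher and 1 was lower, against 34.1% and 27.0% of all genes. In WB-F344 rapamycin lowered 1 of 7, Stat3, by 0.37, and raised 0, against 17.4% and 7.81% of all genes. In WB311 0 of 9 were called, where 1.70% of all genes rose and 2.05% fell.

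Of 23 other interferon-induced genes tested with vehicle, 13 were higher in WB311 and 6 lower, against 28.0% and 28.8% of all genes. Only 19 genes of this list were tested within WB-F344, so some of the 23 were measured through WB311 alone. The counts thus describe the measured genes. Subunits of the immunoproteasome, which cuts peptides for MHC class I, differed in opposite directions. Psmb8 was at 174, 168 and 171 in WB311 and at 41.3, 33.9 and 37.9 in WB-F344, a log2 difference of 2.19 (adjusted p = 1.03e-09 from limma, rough size). It was tested through WB311 alone, so its small p is no support of its own. Psmb10 was at 179, 203 and 189 in WB311 and at 430, 440 and 446 in WB-F344, a difference of -1.21 (adjusted p = 9.32e-09 from limma). The plates did not overlap for either gene. Ube2l6, the conjugating enzyme of Isg15, was higher by 2.17 (adjusted p = 2.97e-09), Parp12 by 2.00, and Parp9 and Dtx3l, which act as a pair, differed by -1.34 and -1.09. With rapamycin the counts were again 13 higher and 6 lower of 23, against 34.1% and 27.0% of all genes.

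Cxcl10, a chemokine that interferons induce and that attracts T cells, had intensities of 540, 534 and 566 in WB311 with rapamycin and 790, 885 and 896 in WB311 with vehicle. In WB-F344 it was at 126, 105 and 117 with rapamycin and at 74.4, 52.7 and 49.6 with vehicle. Rapamycin plates thus lay under the vehicle plates in WB311 and over them in WB-F344. The log2 change was -0.65 in WB311 (standard error 0.13) and 0.996 in WB-F344 (SE 0.13, limma adjusted p = 0.000227, rough size). Within WB-F344 it was tested only through the rapamycin plates, so that small p is no support of its own. The difference between the lines was 3.89 with vehicle and 2.24 with rapamycin. In WB-F344 rapamycin raised 2 of 19 genes of this list, Cxcl10 and Trim26, and lowered 2, Ube2l6 and Psmb10. Of all genes 7.81% rose and 17.4% fell there. In WB311, where 1.70% of all genes rose and 2.05% fell, Cxcl10 was the 1 gene of 22 called. That call ended without any 1 of the 6 WB311 plates (log2 -0.61 to -0.70). In WB-F344 the methods' t-test ended the calls of Cxcl10, Trim26 and Ube2l6 (adjusted p = 0.062, 0.0637 and 0.0791).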

How the data were processed

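RNA from triplicate plates was hybridized to 12 arrays, and the authors deposited linear intensities after Robust Multiarray Average normalization, from 7.78 to 20499, with array medians of 59.5 to 62.9. The log2 was taken here and all 12 arrays were fitted as 4 groups with limma 3.58.1 in R 4.3.3 (statmod 1.5.0). A probe set was tested where its linear mean was at least 100 in a group compared (for the difference of the changes, in any group), with Benjamini-Hochberg adjustment over all probe sets tested. The thresholds of 100 and of a 1.2-fold change are those of the study's methods, whose two-sample t-test was an alternative. The annotation gave 1 gene symbol for 20826 of 31042 probe sets, several for 436 and none for 9780, and 20758 gene identifiers were found in RefSeq. The fit was tested on simulated data. Precision is limited by 3 arrays per group.

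The members and lists were chosen with earlier results of these data known. Genes named are the 48 members, by their probe set of highest mean log2 intensity, with plate values for Isg15, Ifi27l2b, Ifi27, Casp4, Ifnar1, Stat2, Irf7, Irf9, Tap1, B2m and up to 8 called members of largest rise and of largest fall a comparison, and from each other list up to 4 genes a comparison of smallest p. Dtx3l, Parp9 and Parp12 were named after their values were seen. The lists were interferon ligands, receptors with their kinases and STATs, nucleic acid sensing, other interferon-induced genes, MHC and peptide loading, and markers of hepatocyte, biliary and progenitor, mesenchymal, endothelial and leukocyte cells. Promoter sequences are those of RefSeq on GRCr8. Alternatives were no intensity filter, the fold change filter first, median centring, cyclic loess, the t-test, only the 2 groups compared, all probe sets of a gene, replicate blocks, and leaving out each plate or both WB-F344 plates numbered 2. The GN5 and H5D lines are not analysed here.

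Replicate numbers were checked as pairs through the correlation of deviations from group means. Same-numbered rapamycin and vehicle plates correlated at 0.58 to 0.88 in WB-F344, all over 0.1. These were taken as pairs only in the alternative settings with a replicate block, from the data and not from the labels. The main fit used no pairing, so its p-values and calls for rapamycin in WB-F344 leave that correlation out of account. Plates 1 and 3 correlated across numbers as well, at 0.60 and 0.62. In WB311 the values were -0.15 to -0.00, and between the lines -0.28 to 0.23.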

Additional observations from a re-analysis of the deposited data

Results flagged for a closer look

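The change with rapamycin differed between the lines, by the interaction contrast of the fit over all 12 arrays, for 4 members and 3 other genes of the pathway. These are differences of log2 changes, WB311 minus WB-F344. For the members the contrast contains the WB311 response that was taken to have chosen them, so their values are a description and no p is given. Isg15 had -1.28, with a change of -1.30 in WB311 and levels under 100 in WB-F344. Ifi27l2b had -0.96, with changes of -1.23 in WB311 and -0.27 in WB-F344. Tap1 had -0.85, with -0.15 in WB311 and 0.70 in WB-F344, and Irgm -0.76, with -0.31 in WB311 and 0.44 in WB-F344. Outside the list, Cxcl10 had -1.64, with opposite changes in the lines, Myd88, an adaptor of Toll-like receptors, had -0.39, with -0.32 in WB311 and 0.07 in WB-F344, and Psmb10 had 0.35, with -0.16 in WB311 and -0.52 in WB-F344. The call of Cxcl10 held under every setting run. That of Myd88 ended without WB-F344 rapamycin plate 1, WB311 vehicle plate 3 or WB311 rapamycin plate 3. That of Psmb10 ended without any 1 of 8 plates, with no intensity filter (adjusted p = 0.0609), after cyclic loess (0.0971) and with a replicate block over both lines (0.0556). The causes of these differences were not tested.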

How the results depend on the processing

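No called member changed direction in any setting run. Counts under other settings, here and above, are of members alone. A setting also moves the calls of genes at large, so nothing particular to the members is read from a changed count. With the fold change filter before the adjustment, 10 members differed in their change between the lines, and 8 did with a replicate block within lines, against 4. In WB-F344, 7 members were called with rapamycin against vehicle, 2 with the methods' t-test and 4 with only the 2 groups compared. The replicate block within lines gave 8 there, the 7 and Lgals9, and 5 in WB311, the 4 and Stat2. The WB311 count is a description only, as that response was taken to have chosen the list. A replicate block over both lines gave 20 and 18 members for the lines with vehicle and with rapamycin, 7 and 4 for rapamycin in WB-F344 and in WB311, and 4 for the difference, each the count without the block. Without any 1 plate the counts were 16 to 20 for the lines with vehicle, 18 to 19 with rapamycin, 4 to 7 for rapamycin in WB-F344 (4 without WB-F344 rapamycin plate 3), 4 to 5 in WB311 and 4 to 6 for the difference. Of the 20 members called between the lines with vehicle, 15 kept their call under all 20 settings run for single genes, and of the 18 with rapamycin 17 did, all but Jak1, whose fold change fell short after cyclic loess (0.20). In WB-F344 Tap1 and Ifi27 kept theirs and B2m, Ifi27l2b, Irf1, Irf9 and Irgm did not. With no intensity filter, 26 and 24 members differed between the lines, Ifi44, Ifih1, Tap2 and Casp1 among those gained in both at levels under 100, where an intensity says little of the transcript. Casp4 also fell in WB-F344 there, by 0.59 (adjusted p = 0.00671 from limma). Over all tested probe sets the median log2 change in WB-F344 was -0.05, and 0.01 after cyclic loess.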

Other observations

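Of 15 genes of MHC and peptide loading tested with vehicle, 6 were higher in WB311 and 1 was lower, against 28.0% and 28.8% of all genes, a share in all no larger than that of genes at large. Only 11 were tested within WB-F344, so some of the 15 were measured through WB311 alone. RT1-DMb, a chain of the class II peptide exchange factor, was at 202, 175 and 234 in WB311 and at 55.8, 54.5 and 63.0 in WB-F344, a log2 difference of 1.81 (standard error 0.11, adjusted p = 2.16e-08 from limma, rough size). RT1-DMb was tested through WB311 alone, so its small p is no support of its own. RT1-N3, a non-classical class I gene, was higher by 1.06 and Erap1, which trims peptides for class I, by 0.97 (adjusted p = 2.03e-06 and 2.53e-06). Rfx5, a factor of class II promoters, differed by -0.55. Near-identical class I genes may share probes, so the RT1 values are uncertain. In WB-F344 rapamycin lowered 1 of 11, Rfxap, by 0.31 (adjusted p = 0.0367), against 17.4% of all genes. That call ended with the methods' t-test (0.163), only the 2 groups compared (0.0993), no intensity filter (0.0708) and without any 1 of 7 plates (up to 0.115). In WB311 0 of 15 were called, where 1.70% of all genes rose and 2.05% fell.

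Of 8 genes of nucleic acid sensing and interferon induction tested with vehicle, 2 were higher in WB311, Tlr4 and Sting1, and 1, Mavs, was lower, against 28.0% and 28.8% of all genes. Tlr4, the receptor for bacterial lipopolysaccharide, was at 215, 198 and 287 in WB311 and at 22.3, 19.8 and 30.0 in WB-F344, a log2 difference of 3.28 (adjusted p = 6.26e-09 from limma, rough size). Casp4, which responds to lipopolysaccharide inside the cell, was higher in the same line. Both genes were measured through WB311 alone, so the small p of Tlr4 is no support of its own. Whether these genes are linked was not tested. Cd14, given above as a leukocyte marker, was not higher in WB311, with log2 differences of -0.11 with vehicle (not called) and -0.89 with rapamycin. Sting1, an adaptor of DNA sensing, was at 97.6, 120 and 81.7 in WB-F344 with rapamycin and at 142, 180 and 172 with vehicle, without overlap. It fell by 0.74 (standard error 0.12, adjusted p = 0.00108 from limma), a call that the methods' t-test ended (adjusted p = 0.101). In WB311 it was at 177, 186 and 185 with rapamycin and at 235, 238 and 244 with vehicle, also without overlap. That log2 change of -0.39 had the same direction and was not called.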
